A study of Homo sapiens with 12 samples.

Results

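The response of AC16 cells to hydrogen peroxide (H2O2) in the presence of a control siRNA is described here from 6 of the 12 libraries of the study: the 3 titled siNC.H2O2, numbered 7 to 9, against the 3 titled siNC, numbered 1 to 3. These libraries were chosen by their column names alone, and all genes in them were considered. AC16 is an established human line, a hybrid of ventricular heart cells and a transformed fibroblast line, that keeps dividing in culture. Per the labels' protocols, all 6 received a negative control siRNA with a transfection reagent in medium without serum. The treated cells were then given H2O2 for 1 h, starting 12 h after transfection, and RNA was taken 48 h after complete medium had been put back. The labels give the dose as 200 mM, a unit that could not be checked and that is unusually high for cultured cells. They do not say whether the untreated cells went back to complete medium at the same time, so an effect of serum and one of H2O2 cannot be told apart where the media differed. Nor do they name separate cultures behind the 3 libraries of 1 group. Every p-value below therefore sets a difference against a spread between libraries of a group, which may be technical. That spread was estimated over all 12 libraries of the study. In bulk RNA such as this, fewer cells of a kind and less RNA per cell cannot be told apart.

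H2O2 enters cells, oxidises thiols, lipids and DNA bases, and is itself a signal: it inactivates phosphatases and so prolongs the activity of the mitogen-activated protein kinases (MAPK). Oxidised DNA activates p53, a transcription factor whose targets halt the cell cycle, repair DNA or start apoptosis, whereas oxidised KEAP1 releases NRF2, which drives genes for glutathione, thioredoxin and quinone metabolism. Cells that survive a pulse of H2O2 are known to enter long-lasting arrest or senescence, in which inflammatory cytokines, proteases and matrix proteins are secreted. In the heart, oxidative stress of this kind accompanies reperfusion after ischaemia.

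Library totals ran from 16081437 to 19033679 estimated counts. The 10 most abundant genes took 3.82% to 4.09% of each library, and replicates correlated across genes at 0.991 to 0.995 (Pearson's r on log2 CPM, counts per 1000000 counts; genes are not independent replicates). Treated and untreated libraries were separated by the first principal component of the 6 libraries, which held 59.5% of the variance. A further axis ran inside both groups. It was computed over all 12 libraries of the study and held 28.6% of their within-group variance. Over 13153 genes its loadings had a Spearman's rho of 0.68 with transcript length, a description across genes. Untreated replicate 1 scored 17.6 on that axis against -11.4 and -6.23 for untreated replicates 2 and 3, and treated replicates 7, 8 and 9 scored -13.9, 1.85 and 12.1. The axis was computed after each group had been centred on its own mean. It thus comes from the spread inside the groups. A fit with it as a covariate takes up part of that spread and tends to call more genes. EP300, the gene targeted in the other 6 libraries, stood at 101, 69.1 and 80.1 CPM without H2O2 and 59.9, 80.4 and 89.9 CPM with it, with overlapping groups, and was not called (log2 fold change -0.12 ± 0.13, SE; adjusted p = 0.52).

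Treated and untreated libraries differed over a large part of the transcriptome, by small amounts. Of 17197 genes, 13171 had enough counts to be tested, and 4647 of them (35.3%) passed an adjusted p of 0.05 in edgeR's quasi-likelihood test: 2349 were higher with H2O2 (17.8%) and 2298 were lower (17.4%). The median size of a called change was 0.38 on the log2 scale, or 1.30-fold, and 3460 called changes were smaller than 1.5-fold. At 2-fold or more, 277 genes were higher (2.10%) and 183 lower (1.39%). The treated and untreated libraries did not overlap in CPM for 5495 genes (41.7%), of which 1211 were not called. The even split between directions depended on how the libraries were scaled: with upper-quartile scaling 1784 genes were higher and 3071 lower, and with the deposited FPKM values (on the log2(FPKM + 1) scale) 1621 were higher and 3276 lower. Those scalings moved the median log2 fold change of all genes from -0.0081 to -0.065 and -0.063, and the gene groups below keep the direction of their median under both unless stated otherwise; the small medians of the endothelial, amino acid transporter and prostaglandin lists turned under 1 of them. Counts of 3 or fewer members often changed under the alternatives. Every list count below stands beside the 17.8% higher and 17.4% lower of all genes. In some lists the share called in either direction was below the 35.3% of all genes. These were antigen presentation (25%), NADPH oxidase (25%), amino acid transporter (25%), histone acetylation (22.2%), prostaglandin (21.4%) and pentose phosphate genes (20%). Peroxide and thiol enzymes (28.6%), ribosomal protein genes (10.5%) and respiratory chain genes (8%) were below it too. Of the 261 called genes named below, 17 were no longer called when 1 library was left out, at adjusted p between 0.051 and 0.21: ACSL1, COL1A1, FTH1, FTL, GLRX2, H6PD, HLA-F, JUNB, MAFG, MAFK, NDUFA10, NPPB, PSMB9, SLC8A1, TFRC, TXNRD1 and UQCRC2. All 17 had changes smaller than 1.5-fold.

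**Figure D1:**
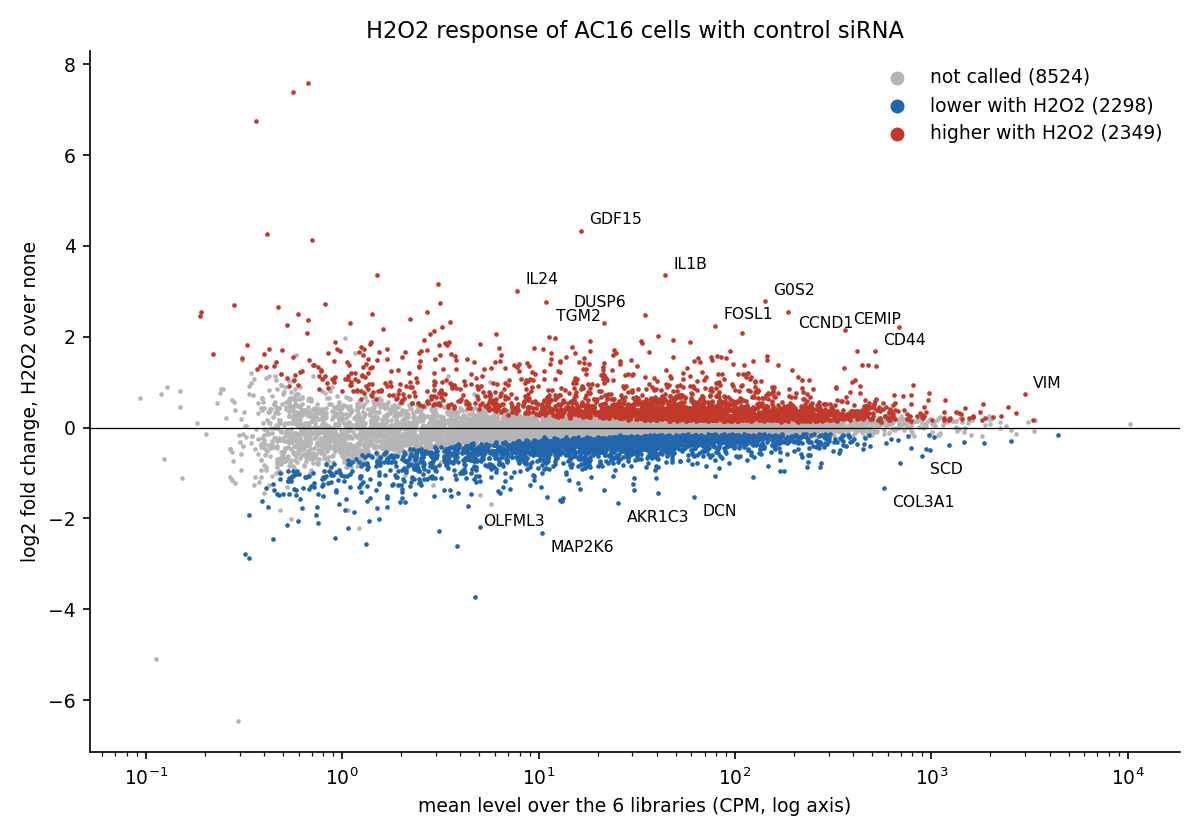
Each point is 1 of the 13171 genes tested, at its mean level over the 6 libraries (CPM, log axis) and its log2 fold change, treated over untreated; red points are called higher, blue points lower and grey points not called. GDF15, IL1B and CCND1 stand above most expressed genes, and MAP2K6, AKR1C3 and DCN lie below; the scattered points beyond ±6 are genes with very few counts.

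GDF15, a stress hormone of the TGF-beta family that is also a p53 target (chr19:18374731-18389176, GRCh38), had the largest rise among expressed genes. It stood at 1.06, 1.72 and 1.86 CPM without H2O2 and 31.4, 30.6 and 32.1 CPM with it. The untreated level was low in all 3 libraries, and the treated libraries lay close to one another. The log2 fold change was 4.34 ± 0.18 (adjusted p = 2.7e-10). IL1B, the inflammatory cytokine interleukin 1 beta (chr2:112829751-112836903), was next, at 6.7, 9.11 and 7.63 CPM without H2O2 and 84.5, 82.7 and 74.3 CPM with it, a log2 fold change of 3.36 ± 0.11 (adjusted p = 1.7e-11). Next came IL24, a cytokine of the interleukin 10 family (log2 fold change 3.02 ± 0.15), G0S2, an inhibitor of triglyceride lipolysis (2.79 ± 0.13), TGM2, a protein-crosslinking transglutaminase (2.77 ± 0.12), and CCND1, cyclin D1 (2.55 ± 0.065). Unless another unit is given, a number in parentheses after a gene is its log2 fold change, a ± after a log2 fold change is the SE, and a ± after a CPM value is the SD over 3 libraries. Others among the 20 largest rises lay between 1.88 and 2.47 and were DUSP6, SERPINB2, FOSL1, CEMIP, PHLDA1, INHBA, IL11, CAMK1G, SOX9, DUSP5, TMEM158, SPRY4 and SEMA7A. They include feedback regulators of MAPK signalling, secreted factors and transcription factors.

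**Figure D2:**
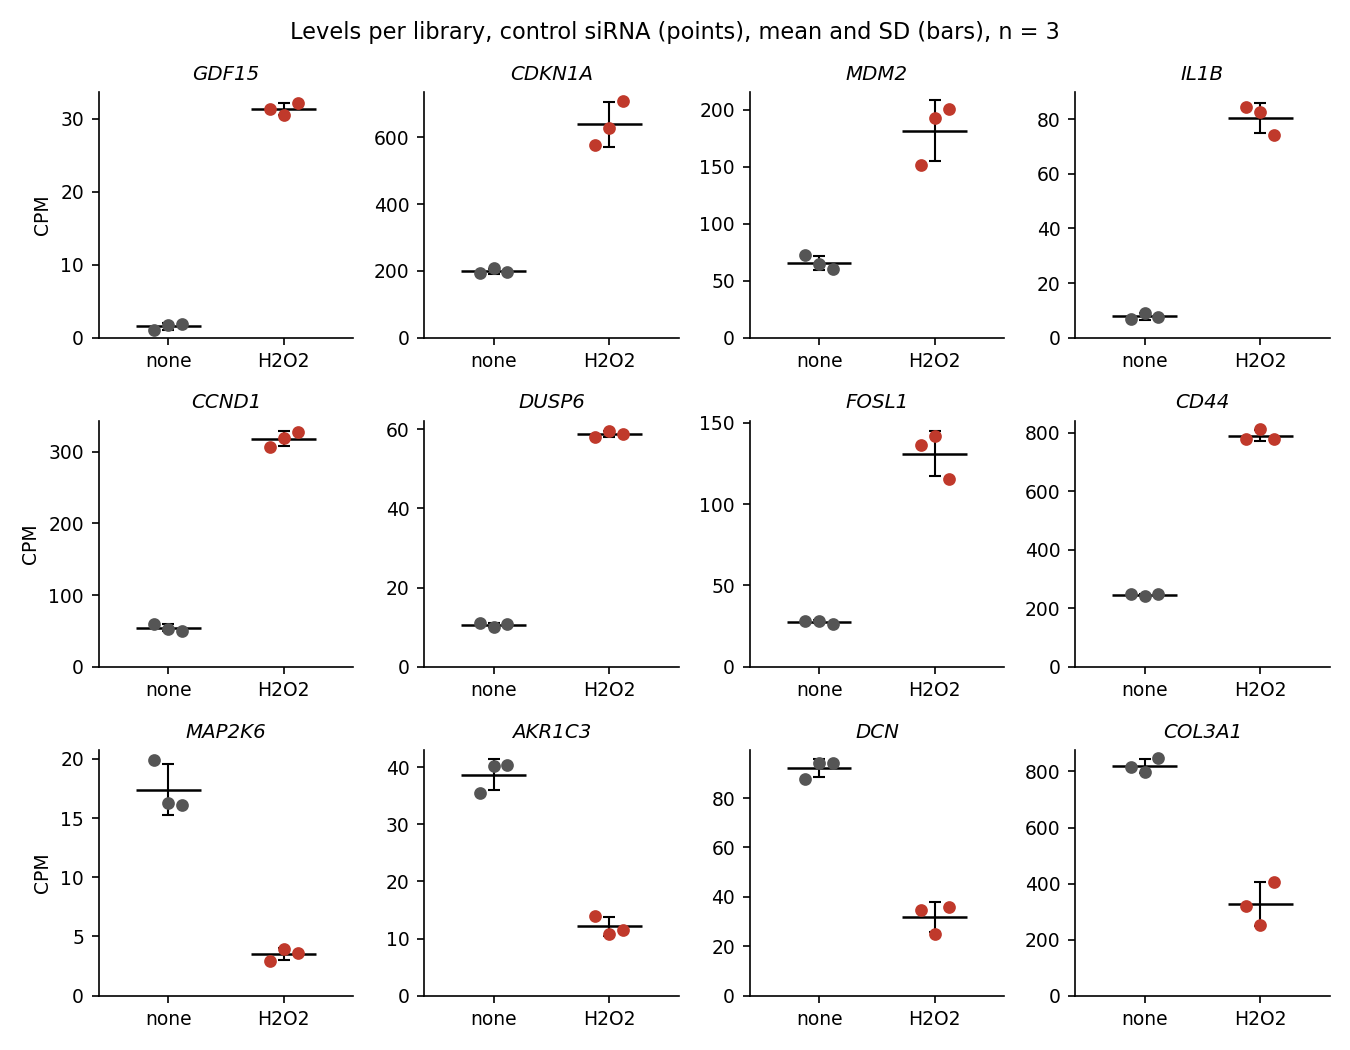
Level of 12 genes in each library (CPM, axes from 0): grey points are the 3 untreated libraries, red points the 3 treated libraries, and black bars the mean and SD. No treated point overlaps an untreated one; GDF15 goes from a mean of 1.54 to 31.3 CPM and MAP2K6 from 17.4 to 3.50 CPM.

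MAP2K6, the kinase MKK6 that activates p38 (chr17:69414698-69553861), had the largest fall among expressed genes. It stood at 19.9, 16.2 and 16.1 CPM without H2O2 and 2.96, 3.96 and 3.58 CPM with it, so every treated library lay far below the lowest untreated one, and the log2 fold change was -2.32 ± 0.15 (adjusted p = 2e-08). AKR1C3, an aldo-keto reductase that reduces steroids and prostaglandins, went from 38.7 ± 2.76 to 12.1 ± 1.62 CPM (log2 fold change -1.67 ± 0.10); it has close paralogs, among which reads may have been split. Secreted matrix proteins were frequent among the 20 largest falls: OLFML3 (-1.61), SERPINF1 (-1.55), which encodes the anti-angiogenic factor PEDF, the proteoglycan gene DCN (-1.53), HMCN1 (-1.35) and COL3A1 (-1.33). OLR1, a receptor for oxidised LDL (-1.43), PKP2, a desmosomal plaque protein of heart muscle (-1.34), and SYNPO, an actin-binding protein (-1.61), fell as well. The others were SFT2D3, GASK1B, C1QL4, SEPTIN4, STOX1, C4B, ANXA8L1, METTL7A, FMC1-LUC7L2 and YPEL1, between -2.19 and -1.26. C4B and ANXA8L1 have near-identical copies and FMC1-LUC7L2 spans 2 genes, so their values are uncertain.

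By absolute level, large gains were those of VIM, the intermediate filament vimentin (2233 to 3743 CPM), the actin crosslinker FLNA (2071 to 2824 CPM) and the chaperone HSP90AB1 (1497 to 2159 CPM). Others among the 10 largest gains were FTL, CD44, the BMP antagonist GREM1, the nuclear import receptor KPNA2, CALM2 and CEMIP. Large losses were those of COL1A1 (4686 to 4186 CPM), FSTL1 (2782 to 2284 CPM), COL3A1 (820.3 to 327 CPM) and MTRNR2L8 (2067 to 1639.6 CPM). Others among the 10 largest losses were SCD, MTRNR2L2, COL5A2, HMGN2 and SPTAN1. MTRNR2L8 and MTRNR2L2 are nuclear copies of mitochondrial ribosomal RNA, so their values may hold mitochondrial reads.

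The p53 targets moved in one direction. Of 29 tested members, 22 were higher and 0 were lower, against 17.8% and 17.4% of all genes, and their median log2 fold change was 0.65 against -0.0081 for all genes. This list and those below were chosen with earlier results of these data known, so their counts describe the members and are no independent test. CDKN1A, the cyclin-dependent kinase inhibitor p21 (chr6:36676460-36687339), stood at 192, 208 and 198 CPM without H2O2 and 577, 629 and 710.0 CPM with it. Treated libraries were about a factor of 3 above untreated ones with no overlap, and the log2 fold change was 1.68 ± 0.08 (adjusted p = 1e-09). MDM2, the ubiquitin ligase that degrades p53, stood at 72.5, 64.2 and 60.4 CPM without H2O2 and 151, 192 and 201 CPM with it (log2 fold change 1.47 ± 0.10, adjusted p = 4.9e-08). AEN, an exonuclease of p53-dependent apoptosis, went from 42.9 ± 0.489 to 126 ± 7.76 CPM, a log2 fold change of 1.56 ± 0.061. BTG2, an antiproliferative factor (from 8.64 ± 1.28 to 23.6 ± 1.88 CPM), and FAS, the death receptor (from 5.26 ± 0.165 to 11.1 ± 0.936 CPM), rose by 1.45 and 1.07. The 4 most abundant members that were not called were the pro-apoptotic BAX (0.22, adjusted p = 0.061), the translesion polymerase POLH (-0.13, 0.3), the ribonucleotide reductase subunit RRM2B (0.17, 0.17) and the phosphatase PPM1D (0.10, 0.2).

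Among the 8 cyclin-dependent kinase inhibitors tested, only CDKN1A rose. CDKN2C, which encodes p18 and acts on CDK4 and CDK6, fell from 91.2 ± 8.26 to 51.1 ± 4.69 CPM (log2 fold change -0.84 ± 0.081), and CDKN2B, p15 (-0.70), and CDKN1C, p57 (-0.62), fell with it. CDKN2A, the locus of p16 and ARF, stood at 211, 255 and 244 CPM without H2O2 and 255, 222 and 234 CPM with it; the groups overlapped and the log2 fold change was 0.0023 ± 0.077 (adjusted p = 0.99). CDKN1B, CDKN3 and CDKN2D were not called, at -0.09, 0.065 and -0.18. Of 30 apoptosis genes, 15 were higher and 4 lower, on both sides of the balance. Death receptor genes FAS and TNFRSF10B (0.64) and the BH3-only gene BID (0.58) rose, as did the survival genes BCL2L1 (0.59) and MCL1 (0.45), whereas BMF, another BH3-only gene, fell (-0.81). CYCS and BIRC5 were not called, at 0.072 and 0.047.

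Genes of DNA synthesis and genes of mitosis parted. Of 42 tested genes for replication and nucleotide supply, 29 were lower and 1 higher (median log2 fold change -0.30); of 35 mitotic genes, 21 were higher and 1 lower (median 0.23). The helicase subunits MCM5, MCM6 and MCM2 (-0.61, -0.57 and -0.42), the helicase cofactor GINS1 (-0.51) and the clamp loader subunit RFC5 (-0.45) fell. MCM6 was at 254, 260.4 and 261 CPM without H2O2 and 171, 176 and 175 CPM with it, and every treated library lay below every untreated one. MCM7, the helicase subunit with the highest level, was not called (524, 539.9 and 568 CPM without H2O2 and 537, 515 and 501 CPM with it, log2 fold change -0.072, adjusted p = 0.28), nor were RPA2 (-0.092), DTL (-0.12) and POLD1 (-0.14).

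On the mitotic side, AURKA, the centrosomal kinase Aurora A, stood at 451, 458 and 488 CPM without H2O2 and 676, 683 and 660.1 CPM with it, a log2 fold change of 0.53 ± 0.05 (adjusted p = 1.4e-06). CCNB1, cyclin B1, which drives entry into mitosis, stood at 359.9, 408 and 398 CPM without H2O2 and 558, 544 and 523 CPM with it (log2 fold change 0.48 ± 0.057, adjusted p = 1.5e-05). In neither did the groups overlap. The spindle protein HMMR rose by 0.52, the ubiquitin-conjugating enzyme UBE2C of the anaphase-promoting complex by 0.60, its activator CDC20 by 0.53 and the kinase PLK1 by 0.43, so that the largest of these rises was 1.52-fold. MKI67, the proliferation antigen Ki-67, overlapped between the groups and was not called (566, 409 and 466 CPM without H2O2 and 382, 450.0 and 439 CPM with it, log2 fold change -0.18, adjusted p = 0.2), nor were ANLN (0.18), PRC1 (0.067) and KIF20A (-0.085).

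**Figure D3:**
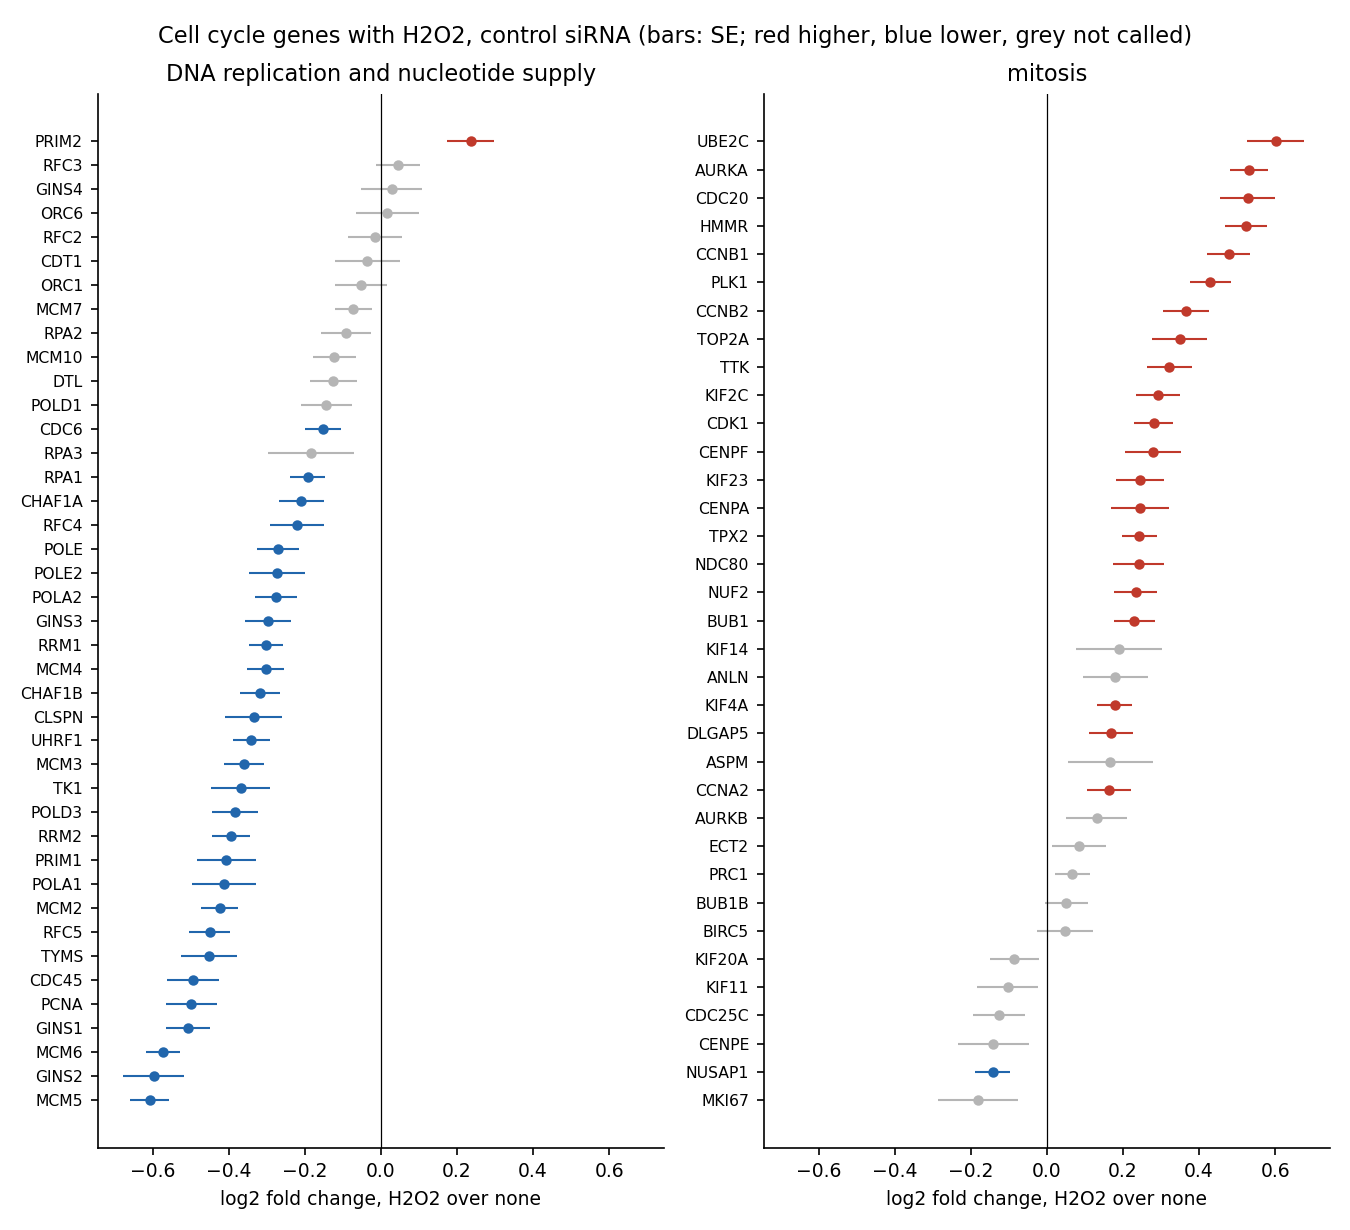
Log2 fold change of each tested gene for DNA replication (left, 41 of the 42 genes) and mitosis (right, 35 genes), with bars of 1 SE; red is called higher, blue lower and grey not called. Replication genes lie mostly left of 0, with MCM5 at -0.61, and mitotic genes mostly right of it, with UBE2C at 0.60.

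The G1 regulators were mixed, with 3 of 14 higher and 4 lower. CCND1 (chr11:69641087-69654474), which links mitogenic signalling to CDK4, stood at 59.7, 53.1 and 49.7 CPM without H2O2 and 307, 319.7 and 328 CPM with it, a 5.87-fold rise that separated the groups by more than the whole untreated level (adjusted p = 3.2e-12). CCNE2, cyclin E2, which acts at the entry into S phase, fell from 42 ± 2.27 to 19.6 ± 2.02 CPM (log2 fold change -1.1 ± 0.093), and the S-phase transcription factors E2F1 (-0.62) and E2F2 (-0.58) fell, whereas E2F3 and CCND3 rose by 0.44 and 0.31. CDK4, RB1, RBL2 and CDC25A were not called, at -0.17, -0.13, -0.24 and 0.14. Of 40 DNA repair genes none was higher and 16 were lower (10 with only the 6 libraries in the fit; 4 were higher with untreated replicate 1 and treated replicate 7 both left out). Those with the smallest adjusted p act at the replication fork or in base excision, crosslink or double-strand break repair: UNG (83.6 to 53.8 CPM, -0.64), LIG1 (158 to 107 CPM, -0.57), FANCA (-0.41), FANCI (-0.34), FEN1 (-0.42) and NBN (-0.34). The end-joining genes XRCC6 and XRCC5, the most abundant of the list, were not called (0.038 and -0.0009).

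Replication-dependent histone genes, whose messages lack poly(A) tails, were lower in part. None of 16 was higher and 8 were lower, with a median log2 fold change of -0.70; H1-2 went from 13 ± 1.2 to 5.82 ± 1.61 CPM and H2BC12 from 13.9 ± 0.14 to 8.0 ± 1.77 CPM. That count fell to 4 without untreated replicate 2 and also without untreated replicate 3, and to 5 without treated replicate 8. It was 4 with DESeq2 or with only the 6 libraries in the fit. Most members stood below 5 CPM, and with a minimum of 5 CPM on average the count was 2.

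Promoter sequences (RefSeq, GRCh38.p14) show what the parted groups carry. The window searched runs from 250 bases before to 50 after each gene's start, on both strands. An E2F site, spelled TTTGGCGC or TTTCCCGC, was found in 17 of the 35 replication genes with a promoter in the table (48.6%) against 3.71% of 10663 tested genes, and 13 of the 17 were lower. A cell cycle homology region (CHR), spelled TTTGAA, was found in 22 of 30 mitotic genes (73.3%) against 9.87%, and 13 of them were higher and 1 lower. Over all tested members, with or without a motif, 29 of 42 replication genes were lower and 21 of 35 mitotic genes higher. Both motifs are known from studies of these 2 classes, so the match describes the lists rather than the response. MCM6 and HMMR are shown because, of the called genes of each class that hold the motif, they had the smallest adjusted p. The 250 bases before the start are printed, with the motif in capitals; MCM6 lies at chr2:135876444-135876693 on the minus strand with sites beginning at -152 and -90 from the start, and HMMR at chr5:163460382-163460631 on the plus strand with elements beginning at -28 and -22.

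MCM6: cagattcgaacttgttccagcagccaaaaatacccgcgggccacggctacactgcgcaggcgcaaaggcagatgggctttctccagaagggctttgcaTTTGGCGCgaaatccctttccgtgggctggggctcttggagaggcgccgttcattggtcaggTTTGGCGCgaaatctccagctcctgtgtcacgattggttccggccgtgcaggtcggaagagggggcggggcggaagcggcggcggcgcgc
HMMR: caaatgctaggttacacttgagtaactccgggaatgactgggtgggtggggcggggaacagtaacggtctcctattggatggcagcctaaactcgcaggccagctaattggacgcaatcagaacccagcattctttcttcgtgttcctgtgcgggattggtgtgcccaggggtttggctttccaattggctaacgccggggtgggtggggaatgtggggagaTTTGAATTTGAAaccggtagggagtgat

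A p53 half-site was found in 3 of the 23 p53 target promoters in the table (13%) against 5.29% of all; p53 often binds farther away or in introns, outside this window. All 3 genes with it, AEN, FDXR and PLK2, rose, among the 22 of 29 tested list members that were higher. FDXR and PLK2 are named for holding the motif, at log2 fold changes of 0.45 and 0.22. AEN is shown at chr15:88621090-88621339 on the plus strand, with the half-site in capitals beginning at -34.

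AEN: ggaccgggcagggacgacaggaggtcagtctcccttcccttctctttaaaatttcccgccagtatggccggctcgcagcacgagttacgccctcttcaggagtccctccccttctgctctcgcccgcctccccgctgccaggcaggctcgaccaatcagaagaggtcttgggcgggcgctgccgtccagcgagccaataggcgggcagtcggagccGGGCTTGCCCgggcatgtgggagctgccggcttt

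Negative feedback genes of the MAPK pathway were higher in the treated libraries, 48 h after complete medium had been put back. Of 20 members, 17 were higher and 0 lower, with a median log2 fold change of 1.01. DUSP6, the phosphatase that inactivates ERK in the cytoplasm (chr12:89347232-89353271), stood at 11, 10.1 and 10.7 CPM without H2O2 and 58.1, 59.6 and 58.7 CPM with it, so treated libraries lay more than 5 times above untreated ones without overlap (log2 fold change 2.47 ± 0.076, adjusted p = 1.5e-11). DUSP5, its nuclear counterpart, stood at 18.3, 19.8 and 22.1 CPM without H2O2 and 80.5, 77.1 and 72.7 CPM with it (log2 fold change 1.94 ± 0.091). DUSP4 rose from 38.4 ± 0.0764 to 112 ± 4.22 CPM, the Sprouty inhibitor SPRY4 from 7.67 ± 0.332 to 28.7 ± 0.545 CPM, and PHLDA1 from 41.4 ± 2.22 to 175 ± 10.1 CPM. The ETS factor ETV5 (1.53) and the receptor EPHA2 (1.37), both induced by ERK, followed. The 3 members that were not called were DUSP16, DUSP7 and DUSP8, at -0.16, 0.16 and -0.29; DUSP16 and DUSP8 act on JNK and p38.

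AP-1, the dimer of Fos and Jun proteins through which MAPK signalling reaches many promoters, had subunit genes that rose and others that fell. FOSL1, the Fos relative Fra-1 (chr11:65892049-65900573), stood at 28.3, 28.2 and 26.5 CPM without H2O2 and 136, 142 and 115 CPM with it (log2 fold change 2.24 ± 0.092, adjusted p = 2.2e-10), and treated libraries exceeded every untreated one by a factor of 4 or more. FOSL2, MAFF, JUN, ATF3 and JUNB rose by smaller amounts (0.74, 0.88, 0.46, 0.30 and 0.28), whereas FOS itself fell from 9.11 ± 1.37 to 6.22 ± 0.539 CPM (-0.55, adjusted p = 0.0017) and so did JDP2, a repressor of AP-1 (-0.62). JUND, BATF3, BATF and FOSB were not called, at -0.10, 0.32, -0.19 and 1.08. Across the wider list of immediate early genes 17 of 24 were higher and 1 was lower, FOS. They included IER3 (from 40.8 ± 1.86 to 121 ± 2.94 CPM), MYC (0.59), DUSP1 (0.61) and KLF6 (0.68). EGR1 and SRF, also on that list, were not called (0.055, adjusted p = 0.63, and 0.064, 0.48).

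Ligands and receptors upstream of this pathway moved too. HBEGF, a ligand of the EGF receptor, rose from 14 ± 0.904 to 30.0 ± 2.44 CPM and NRG1, a ligand of ERBB3 and ERBB4, from 8.53 ± 0.529 to 13.7 ± 1.44 CPM. AREG was near the limit of detection in untreated cells (0.106, 0.0521 and 0.212 CPM without H2O2 and 0.754, 0.88 and 0.813 CPM with it). EGFR rose by 0.48, and its feedback inhibitor ERRFI1 by 0.91, whereas the receptors ERBB3 (-0.73) and ERBB2 (-0.30) fell. EGF was not called (-0.16). An AP-1 site, spelled TGAGTCA, was found in 1 of 16 promoters of the MAPK feedback genes and 1 of 12 of the protease genes described below, against 3.03% of all genes.

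**Figure D4:**
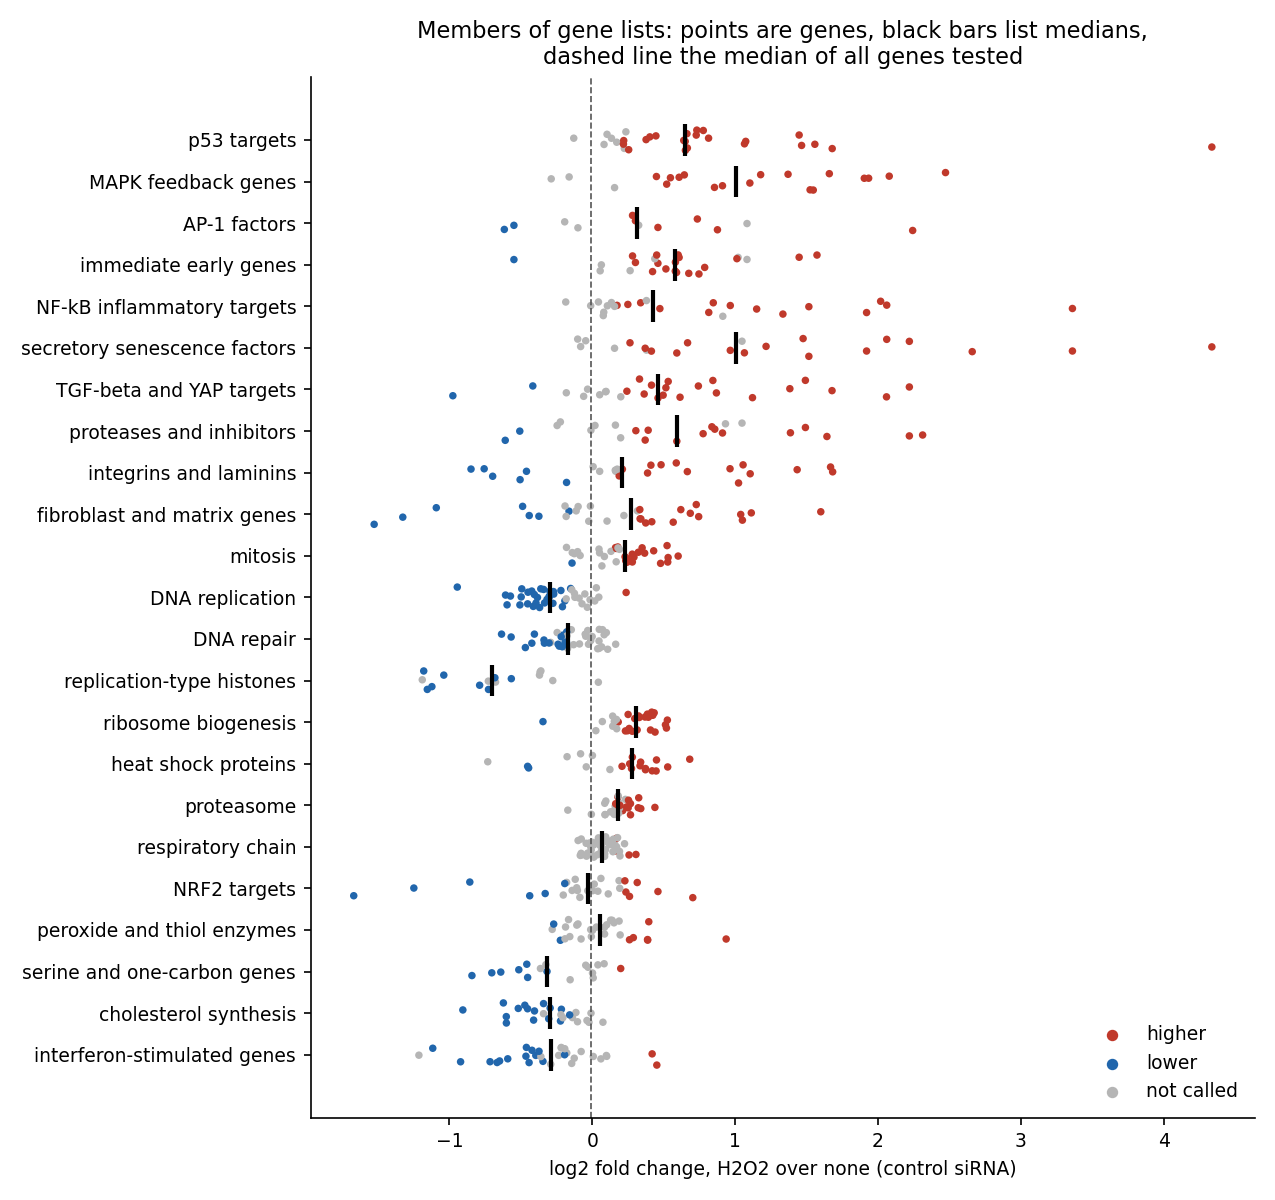
Log2 fold change of every tested member of 23 gene lists (points: red higher, blue lower, grey not called), with the list median as a black bar and the median of all genes as a dashed line. MAPK feedback genes and secretory senescence factors have medians near 1.0, p53 targets 0.65, DNA replication genes -0.30 and replication-type histones -0.70; a gene in more than 1 list, such as GDF15, appears in each.

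Inflammatory genes driven by NF-kB were higher in 14 of 24 cases and lower in none (median 0.43). Besides IL1B, the cytokine IL11 rose from 16.1 ± 1.15 to 65.2 ± 4.77 CPM and the chemokine CCL2 from 5.98 ± 0.224 to 17.1 ± 1.9 CPM. ICAM1, an adhesion molecule for leukocytes, stood at 172, 175 and 187 CPM without H2O2 and 319, 306 and 336 CPM with it, without overlap (log2 fold change 0.85 ± 0.062, adjusted p = 9.8e-08). CXCL1 rose from a low level (0.845, 1.25 and 1.17 CPM without H2O2 and 3.99, 4.02 and 4.39 CPM with it) and the groups did not overlap. TNFAIP3, the ubiquitin-editing enzyme A20 that ends NF-kB signalling, rose from 13.3 ± 0.702 to 29.7 ± 1.4 CPM (1.15), but NFKBIA, an inhibitor induced by NF-kB that was looked up after the data were seen, was not called (22.8, 27 and 24.5 CPM without H2O2 and 25.9, 25.5 and 25 CPM with it). Those not called also included the subunits RELA (0.077), REL (-0.19) and NFKB1 (0.08), and SOD2 (-0.011).

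The secretory senescence list overlaps these genes. It had 16 of 22 members higher and 0 lower (median 1.01), among them IL1B, GDF15, CCL2, the angiogenic factor VEGFA (from 56.6 ± 3.65 to 118 ± 10.3 CPM) and the glycoprotein hormone STC1 (from 7.7 ± 0.567 to 17.9 ± 1.07 CPM). The insulin-like growth factor binding proteins IGFBP3, IGFBP2 and IGFBP6 were not called (-0.082, -0.10 and -0.046), nor was CXCL2 (0.16). CDKN2A and LMNB1, genes often used beside such secreted factors, were at 0.0023 (not called) and -0.23 (adjusted p = 0.0021); LMNB1 was looked up after the data were seen.

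Interferon-stimulated genes went the other way: 14 of 31 were lower and 2 higher (median -0.29). IFI44 stood at 21.9, 20.8 and 20.9 CPM without H2O2 and 14.4, 12.3 and 12 CPM with it and IFIT1, which binds foreign RNA, at 34.6, 34.5 and 34.2 CPM without H2O2 and 24, 21.3 and 20.5 CPM with it. Both fell without overlap, with log2 fold changes of -0.72 ± 0.077 (adjusted p = 5.6e-06) and -0.65 ± 0.082 (2.6e-05). STAT2, a subunit of the interferon-activated factor ISGF3, fell from 158 ± 9.81 to 114 ± 5.99 CPM, and PARP9 fell (-0.42). IRF1 and DDX58, the RNA sensor RIG-I, were the 2 that rose (0.42 and 0.45); IRF1 is also a target of NF-kB. PARP14, IFI6 and ISG15 were not called, at -0.19, -0.18 and -0.22. Of 16 antigen presentation genes, 1 was higher, the checkpoint ligand CD274 (from 9.75 ± 0.462 to 16 ± 1.09 CPM), and 3 were lower, ERAP1 (-0.35), HLA-F (-0.41) and PSMB9 (-0.25). The abundant HLA-B, B2M and HLA-C were not called, at -0.19, -0.17 and -0.16; 8 members were lower with upper-quartile scaling, 7 without untreated replicate 1, 5 without treated replicate 7 and 1 without treated replicate 8.

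The promoters of both lists held their textbook motifs. An NF-kB site, spelled GGG, 2 free bases and TTTCC, was in 9 of 20 NF-kB target promoters (45.0%) against 2.13% of all, and 5 of the 9 genes were higher and 0 lower. The core of an interferon-stimulated response element (ISRE), spelled GAAA, 2 free bases and GAAA, was in 15 of 23 interferon gene promoters (65.2%) against 2.84%, and 5 of the 15 were lower and 0 higher. Over all tested members, 14 of 24 NF-kB genes were higher and 14 of 31 interferon genes lower. Here too the matches describe the lists rather than the response. TNFAIP3 (chr6:137867009-137867258, plus strand, sites beginning at -67 and -55) and IFI44 (chr1:78649539-78649788, plus strand, element beginning at -18) are shown because they had the smallest adjusted p among called genes with the motif. Capitals mark the motif, here on the opposite strand.

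TNFAIP3: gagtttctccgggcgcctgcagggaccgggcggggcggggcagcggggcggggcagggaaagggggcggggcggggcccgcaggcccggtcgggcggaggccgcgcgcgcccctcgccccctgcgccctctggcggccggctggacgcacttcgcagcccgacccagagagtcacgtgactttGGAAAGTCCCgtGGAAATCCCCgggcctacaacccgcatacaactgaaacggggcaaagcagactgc
IFI44: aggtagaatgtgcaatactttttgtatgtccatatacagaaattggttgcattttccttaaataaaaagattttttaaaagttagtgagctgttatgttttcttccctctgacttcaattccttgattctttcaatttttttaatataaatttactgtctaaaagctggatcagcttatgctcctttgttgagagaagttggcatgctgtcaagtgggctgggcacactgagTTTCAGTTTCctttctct

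Genes of pericellular proteolysis were prominent among the rises. Of 23 proteases and inhibitors, 13 were higher and 2 lower (median 0.59). PLAU, the plasminogen activator urokinase, stood at 12.5, 11.5 and 12.3 CPM without H2O2 and 36.6, 38.5 and 38.2 CPM with it (log2 fold change 1.64 ± 0.078), and the urokinase receptor PLAUR at 69.7, 80.4 and 78.5 CPM without H2O2 and 228, 219 and 196 CPM with it (1.49 ± 0.082). Neither the protease nor its receptor overlapped between the groups. SERPINB2, a urokinase inhibitor, rose from 7.18 ± 1.28 to 35.7 ± 0.881 CPM, TIMP3, an inhibitor of metalloproteases, from 91.9 ± 8.46 to 240.4 ± 6.45 CPM, and the membrane metalloprotease MMP14 from 133 ± 5.19 to 242 ± 2.75 CPM. The count of lower members was 4 without treated replicate 9. ADAM9, the gelatinase MMP2, MMP15 and ADAMTS5 were not called, at 0.16, -0.0097, 0.20 and -0.25.

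Target genes of TGF-beta and of the mechanosensitive factor YAP were higher in 18 of 27 cases and lower in 2 (median 0.46). F3, tissue factor, the initiator of blood coagulation, rose from 39.9 ± 1.53 to 112 ± 5.88 CPM. ANKRD1, a cardiac stress gene and YAP target, rose from 8.67 ± 0.653 to 27.7 ± 2.22 CPM, THBS1 from 263 ± 36.7 to 686 ± 30.8 CPM, CCN2, connective tissue growth factor, from 76.4 ± 6.08 to 166 ± 19.2 CPM, and INHBA, the subunit of activin A, from 2.35 ± 0.733 to 9.84 ± 1.39 CPM. TGFBI, a further TGF-beta target, was not called (296, 300.2 and 303 CPM without H2O2 and 294, 286 and 299.8 CPM with it), nor were AMOTL2 (0.093), TGFBR1 (0.096) and SKIL (0.052).

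Fibroblast and matrix genes moved in both directions. Of 30 fibroblast and matrix genes, 14 were higher and 7 lower. COL3A1, the fibrillar collagen of distensible tissue (chr2:188974320-189012746), stood at 816, 798 and 847 CPM without H2O2 and 321, 253 and 407 CPM with it: each treated library lay below every untreated one, and the treated libraries had the wider spread (log2 fold change -1.33 ± 0.13, adjusted p = 1.4e-06). The small proteoglycans LUM and DCN, which bind collagen fibrils, fell too. LUM stood at 162, 176 and 165 CPM without H2O2 and 79.7, 69.7 and 86.1 CPM with it (log2 fold change -1.09 ± 0.079). DCN stood at 87.7, 94.3 and 94.2 CPM without H2O2 and 34.6, 24.9 and 36 CPM with it (-1.53 ± 0.19). In contrast COL6A1 (from 485 ± 10.4 to 803 ± 44.5 CPM), the crosslinking enzyme LOX (from 132 ± 13.7 to 286 ± 44.8 CPM), VIM (from 2233 ± 149 to 3743 ± 162 CPM) and the smooth muscle actin ACTA2 (from 3.19 ± 0.803 to 9.68 ± 0.393 CPM) rose. SPARC, COL1A2, FBN1 and COL5A1 were not called, at -0.013, -0.18, 0.22 and -0.099. The count of lower genes rose from 7 to 11 without treated replicate 9.

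Adhesion genes also moved in both directions, with 14 of 25 integrin and laminin genes higher and 6 lower. LAMB3 stood at 45.6, 44 and 45.4 CPM without H2O2 and 156, 143 and 135 CPM with it and encodes a chain of a basement membrane laminin. The receptors for that laminin, ITGA3 and ITGA6, rose from 267 ± 17.9 to 554 ± 28.9 CPM and from 83.5 ± 8.24 to 169.8 ± 21.5 CPM, and ITGB5 and the collagen receptor ITGA11 by 0.67 and 0.96. LAMA5, ITGAV, ITGA4 and LAMA4 were not called, at 0.006, 0.052, 0.16 and 0.16. Both hyaluronan genes among the largest changes rose: CD44, the receptor, stood at 248, 242 and 247 CPM without H2O2 and 779, 811 and 779.6 CPM with it, and CEMIP, which promotes hyaluronan breakdown, at 153, 112 and 134 CPM without H2O2 and 494, 566 and 722 CPM with it. CD44 varied little inside the groups, and CEMIP varied more, but neither overlapped.

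**Figure D5:**
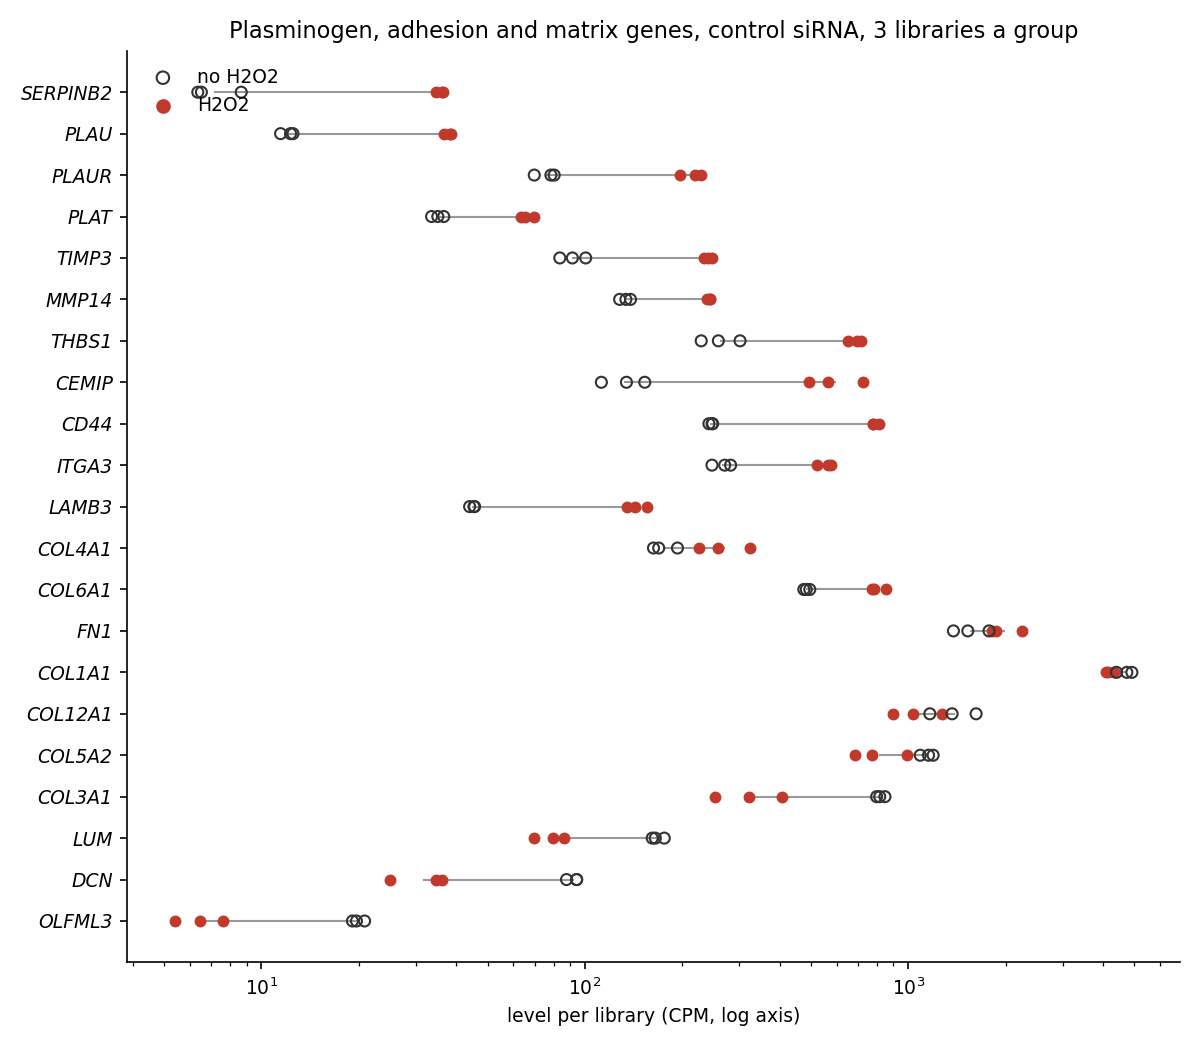
Level per library (CPM, log axis) of 21 genes of plasminogen activation, adhesion and matrix; open circles are the 3 untreated libraries, red points the 3 treated libraries, and a grey line joins the means. SERPINB2 and PLAU move right by a factor of 3 or more, COL3A1, LUM, DCN and OLFML3 move left by a factor of 2 or more, and COL1A1 barely separates.

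Antioxidant genes showed no common direction at this time. Of 27 NRF2 targets, 6 were higher and 6 lower (median -0.032); with upper-quartile scaling 2 were higher and 8 lower, and with the deposited FPKM 1 and 10. Without untreated replicate 2 the number higher was 3, and without untreated replicate 3 or treated replicate 7 it was 2. The aldo-keto reductase genes AKR1C3 (35.5, 40.3 and 40.3 CPM without H2O2 and 14, 10.9 and 11.5 CPM with it) and AKR1C2 (2.9, 1.72 and 3.07 CPM without H2O2 and 1.51, 0.692 and 0.975 CPM with it) fell together with PIR (-0.86), TRIM16 (-0.33) and the pentose phosphate enzyme PGD (-0.19), whereas OSGIN1 rose from 4.3 ± 0.714 to 6.97 ± 1.47 CPM. NQO1, the quinone reductase most used as an NRF2 readout, overlapped between the groups (181, 202 and 191 CPM without H2O2 and 207, 178 and 189 CPM with it; log2 fold change 0.0026, adjusted p = 0.98). TKT and TALDO1 were not called either (0.06 and -0.12). HMOX1, haem oxygenase, was looked up after the data were seen and stood at 28.7, 32.7 and 31.2 CPM without H2O2 and 32.6, 31.4 and 26.6 CPM with it, also overlapping (adjusted p = 0.8). The antioxidant response element, spelled TGACNNNGC, was in 5 of 20 promoters of the list (25%) against 14.85% of all, with 1 of the 5 higher and 2 lower.

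Among the regulators of this pathway, NFE2L2, which encodes NRF2, stood at 139, 135 and 135 CPM without H2O2 and 137, 135 and 129 CPM with it and its inhibitor KEAP1 at 63.6, 71.4 and 69.6 CPM without H2O2 and 71.5, 65.8 and 62.9 CPM with it, both with overlapping groups and not called. Of 9 regulators, 4 were higher: the small Maf partners MAFF (0.88), MAFG (0.22) and MAFK (0.20), and SQSTM1, the autophagy receptor p62 that sequesters KEAP1 (from 343 ± 14.9 to 444 ± 52.8 CPM). NFE2L1, BACH1 and NFE2L3 were not called, at -0.10, 0.24 and 0.049. With upper-quartile scaling or the deposited FPKM 2 regulators were higher and 1 lower, and with only the 6 libraries in the fit 2 were higher.

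Among 28 enzymes that remove peroxides or repair thiols, 6 were higher and 2 lower, but 4 higher and 5 lower with the deposited FPKM, and the sign of the median (0.057) turned with upper-quartile scaling. GLRX, the glutaredoxin that removes glutathione from proteins, stood at 67.6, 79.8 and 77.3 CPM without H2O2 and 149, 132 and 149 CPM with it (log2 fold change 0.94 ± 0.076, adjusted p = 3e-07), without overlap. PRDX6 and PRDX1, peroxiredoxins of the cytosol, rose by 0.39 and 0.29, GLRX2 by 0.39 and TXNRD1, thioredoxin reductase, by 0.26 with overlapping groups, whereas the mitochondrial PRDX3 fell (-0.22). TXNIP, PRDX5, SOD1 and GPX1 were not called, at 0.086, -0.19, 0.14 and 0.085.

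Metal-binding proteins changed individually. The metallothionein MT2A stood at 53.1, 73.6 and 63.3 CPM without H2O2 and 168, 137 and 128 CPM with it (log2 fold change 1.18 ± 0.14, adjusted p = 1.2e-05) and MT1X rose by 0.69, MT1F fell from 2.86 ± 0.386 to 1.26 ± 0.12 CPM, and MT1E was not called (-0.22); these genes are near copies of each other. Among 12 iron genes 5 were higher and 1 lower. The ferritin light chain FTL rose from 2405 ± 236 to 2991 ± 360.3 CPM and the heavy chain FTH1 from 1502 ± 175 to 1759 ± 169 CPM with overlapping groups, the transferrin receptor TFRC by 0.19 and the importer SLC39A14 by 0.40, and SLC40A1, ferroportin, the iron exporter, fell from 22.7 ± 2.19 to 13.9 ± 1.49 CPM. The count of 5 was 3 without untreated replicate 1 or 3 or without treated replicate 7 or 8. With upper-quartile scaling 3 iron genes were higher and 3 lower, and with the deposited FPKM 2 and 3. In the ferroptosis list 6 of 20 were higher and 3 lower: SAT1, a polyamine acetyltransferase, rose from 24.8 ± 2.86 to 52.8 ± 2.2 CPM, ACSL4, which primes membranes for lipid peroxidation, by 0.40, and GPX4, which repairs lipid peroxides, was not called (114, 147 and 131 CPM without H2O2 and 133, 129 and 109 CPM with it). The ferroptosis counts turned to 4 higher and 5 lower with upper-quartile scaling and to 2 and 5 with the deposited FPKM.

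Cholesterol synthesis genes were lower. None of 25 cholesterol synthesis genes was higher and 15 were lower (median -0.30). The transcription factors of the pathway, SREBF2 and SREBF1, stood at 380.3, 359 and 373 CPM without H2O2 and 236, 258 and 283 CPM with it and at 95.8, 105 and 105 CPM without H2O2 and 70.0, 61 and 67.4 CPM with it, without overlap (log2 fold changes -0.52 ± 0.061 and -0.62 ± 0.063). The sterol enzymes TM7SF2, LSS and DHCR7 fell with them (-0.91, -0.45 and -0.41). Not called were FDFT1 (-0.037), STARD4 (-0.22) and CYP51A1 (-0.11). The desaturases FADS1 (from 352 ± 15.5 to 193 ± 23.2 CPM), FADS2 (from 402 ± 14.3 to 273 ± 20.2 CPM) and SCD (from 1085 ± 81.3 to 709 ± 89.7 CPM) were the 3 of 14 fatty acid genes that fell, a number that was 5 without untreated replicate 2 or treated replicate 9 and 8 with upper-quartile scaling or the deposited FPKM. The acyl-CoA synthetase genes ACSL4 (0.40) and ACSL1 (0.33) of that list rose, and 3 lower and 2 higher of 14 is near the shares among all genes. ACLY, FASN, ELOVL5 and ACSL3 were not called, at 0.056, -0.16, -0.075 and -0.11.

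Of 17 genes of serine and folate metabolism, 7 were lower and 1 was higher (median -0.32). PHGDH, the first enzyme of serine synthesis, stood at 248, 277 and 282 CPM without H2O2 and 186, 167 and 164 CPM with it (log2 fold change -0.64 ± 0.071, adjusted p = 7e-06). The folate enzymes SHMT1 and ALDH1L2 (-0.51 and -0.84) fell, as did PSAT1 (-0.46) and TYMS (-0.45). MAT2A, AHCY, MTHFD1 and MTHFD2 were not called (-0.046, 0.083, 0.0015 and 0.0065). The targets of ATF4, the factor of the integrated stress response, included these serine genes and divided, with 7 of 29 higher and 9 lower and a median whose sign depended on the scaling. STC2 rose from 247 ± 22.2 to 639 ± 8.93 CPM, SESN2 from 21.4 ± 1.15 to 33.9 ± 0.948 CPM and CEBPB by 0.71, and ASNS, asparagine synthetase, fell from 75.1 ± 0.528 to 48.8 ± 2.33 CPM. ATF4 itself was not called (339, 385 and 393 CPM without H2O2 and 533, 453 and 362 CPM with it).

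Glucose transport and hexokinase genes were higher. The transporter SLC2A1 stood at 99, 93.1 and 93.7 CPM without H2O2 and 154, 176 and 167 CPM with it and hexokinase HK1 at 284, 269 and 285 CPM without H2O2 and 432, 403 and 416 CPM with it (log2 fold changes 0.80 ± 0.07 and 0.58 ± 0.049), and HK2 and PFKP rose by 0.67 and 0.32. Among the 4 that fell were the phosphofructokinase PFKL (from 135 ± 7.98 to 107 ± 4.93 CPM), named after its values were seen, and the aldolase ALDOC (from 92.3 ± 10.8 to 60.4 ± 2.97 CPM). In all, 10 of 20 glycolysis genes were higher and 4 lower; GAPDH, TPI1, PGK1 and PGAM1 were not called (-0.085, -0.10, 0.055 and -0.062). The hypoxia list, with 10 of 25 higher and 3 lower, shared SLC2A1 and was led by SLC2A3 (from 110.1 ± 6.54 to 206 ± 4.9 CPM), VEGFA, ADM, a vasodilator peptide gene (from 84.3 ± 2.48 to 169.5 ± 15.4 CPM), STC1 and LOX; BNIP3L, BNIP3, P4HA2 and EGLN1 were not called (-0.059, 0.17, 0.10 and -0.12). The pentose phosphate list had 2 of 10 lower, PGD and H6PD (-0.29), and none higher; 1 was lower without untreated replicate 2, treated replicate 7 or treated replicate 8.

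Of 50 nuclear genes of the respiratory chain, 4 were higher and 0 lower. They were ATP5F1B, NDUFC2, UQCRC2 and NDUFA10, between 0.16 and 0.31. The most abundant of the uncalled, ATP5F1A, COX4I1, SDHA and COX6A1, were at 0.087, 0.17, 0.0097 and 0.15. The count depended on the fit and the libraries. It was 16 with the within-group axis as a covariate and 13 with each library's own trend on transcript length removed. It was 9 without treated replicate 9 and 2 without untreated replicate 1, treated replicate 7 or treated replicate 8. With untreated replicate 1 and treated replicate 7 both left out, 8 were lower. Among 18 genes of mitochondrial biogenesis and dynamics, 7 were higher, led by TFB1M (0.45), the fusion gene MFN2 (0.32) and the mitophagy kinase PINK1 (0.42), and GABPA (-0.37) and MFN1 (-0.27) were the 2 lower. TFAM, OPA1, MFF and POLG were not called, at -0.052, 0.029, 0.15 and -0.082.

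Ribosome assembly genes were mostly higher: 22 of 30 rose and 1 fell (median 0.31). GNL3, nucleostemin, stood at 79.5, 80.2 and 79.1 CPM without H2O2 and 122, 118 and 104 CPM with it, the processing factors WDR43, NOP58, NOP16 and DKC1 rose by 0.44, 0.42, 0.52 and 0.33, and UBTF, the RNA polymerase I factor, fell from 128 ± 5.58 to 101 ± 3.99 CPM. The nucleolar proteins NCL and FBL were not called (0.025 and 0.17). Ribosomal protein genes gave no stable count: 6 of 57 were higher and 0 lower, 0 were called with upper-quartile scaling, with the deposited FPKM or with only the 6 libraries in the fit, and 10 with DESeq2. Leaving out 1 library moved the 6 to 0 (without untreated 1 or treated 7), 2 (untreated 3 or treated 8), 17 (untreated 2) or 23 (treated 9), and the axis as a covariate moved it to 41. Of 20 tRNA synthetase genes, 7 were higher, with RARS1 at 0.42 and TARS1 at 0.30, and AARS1 fell (-0.25).

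Chaperone genes rose in part. Of 21 heat shock genes, 13 were higher and 2 lower. HSPH1 stood at 157, 148 and 159.7 CPM without H2O2 and 245, 249 and 251 CPM with it (log2 fold change 0.68 ± 0.047, adjusted p = 4.6e-08), and HSP90AB1, DNAJB6 and HSPD1 rose by 0.53, 0.42 and 0.45. HSPA1B and HSPA1A, the stress-induced Hsp70 genes, fell (HSPA1B 255, 286 and 286 CPM without H2O2 and 209, 199 and 196 CPM with it; log2 fold changes -0.45 and -0.45); they are near-identical, so HSPA1A is named with its copy and the division between them is uncertain. DNAJB1, HSPB1, DNAJA1 and DNAJB4 were not called, at 0.00087, -0.18, -0.082 and 0.12. In the endoplasmic reticulum 12 of 26 genes were higher and 0 lower: the sensor ERN1 rose from 13.1 ± 1.06 to 22.7 ± 4.01 CPM, the chaperones HSPA5 (from 777 ± 32.3 to 976 ± 79.2 CPM) and HSP90B1 (from 1483 ± 37.6 to 1780.3 ± 54.3 CPM) by 0.33 and 0.26, and HYOU1 and HERPUD1 by 0.29 and 0.28. CANX, P4HB, PDIA3 and PDIA6 were not called (0.18, 0.023, 0.058 and 0.062).

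Genes of protein degradation were higher in part, by small amounts. Of 31 proteasome genes, 14 were higher and 0 lower, with PSMD2 (from 409 ± 5.8 to 554 ± 38.4 CPM), PSMC1 (0.34) and PSMB7 (0.33) in front. That count was 7 with upper-quartile scaling, 5 with the deposited FPKM and 6 with only the 6 libraries in the fit. It was also 8 without untreated replicate 1 or treated replicate 8, 7 without treated replicate 7, 23 without treated replicate 9 and 25 with the within-group axis as a covariate. PSMA7, PSMB4, PSMA4 and PSMA2 were not called, at 0.23, 0.14, -0.0067 and 0.18. Of 33 autophagy and lysosome genes, 12 were higher and 1 lower, but 7 higher with either alternative scaling; WIPI1, which marks forming autophagosomes, stood at 42.2, 43.2 and 48.1 CPM without H2O2 and 72.9, 75.1 and 76.9 CPM with it, and the lysosomal cholesterol exporter NPC1 and CTSB, cathepsin B, rose by 0.45 and 0.25.

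Growth factors, hormones and the clock contributed single genes. Of 18 vascular growth genes, 10 were higher and 3 lower, among them VEGFC (from 46.1 ± 1.64 to 81.8 ± 1.21 CPM), the co-receptor NRP1 (from 109 ± 8.91 to 184 ± 10.5 CPM) and PDGFA (from 12.1 ± 0.685 to 23.5 ± 1.05 CPM). Of 25 Notch and Wnt genes, 10 were higher and 2 lower: the Wnt antagonist DKK1 stood at 152, 155 and 159 CPM without H2O2 and 334, 293 and 339 CPM with it, WNT5B rose from 41.2 ± 1.17 to 95.5 ± 5.8 CPM, and the Notch target HES1 rose from a low level (0.95, 1.2 and 1.38 CPM without H2O2 and 6.52, 6.47 and 4.77 CPM with it). SGK1, a kinase induced by glucocorticoids and serum, rose from 32.8 ± 0.873 to 81 ± 3.97 CPM, and CYP24A1, the vitamin D hydroxylase, from 7.02 ± 1.21 to 20.7 ± 2.44 CPM, with 10 of 20 nuclear receptor genes higher and 3 lower. FBXO32, the ubiquitin ligase atrogin-1 of muscle atrophy, rose from 8.67 ± 0.749 to 25.2 ± 1.09 CPM among FOXO targets (6 of 13 higher, 3 lower). Of 16 clock genes 5 were higher and 2 lower, and the sign of their median depended on the scaling; NPAS2 rose from 4.15 ± 0.421 to 10.9 ± 0.215 CPM and DBP fell from 22.4 ± 0.421 to 12.1 ± 1.24 CPM. Amino acid transporters (2 of 20 higher, 3 lower), prostaglandin genes (2 of 14 higher, 1 lower), NADPH oxidase genes (1 of 4 higher, 0 lower) and histone acetylation genes (2 of 27 higher, 4 lower) had few calls, and these moved. The 2 higher amino acid transporters became 5 without untreated replicate 1 and 1 without treated replicate 7, and the 1 lower prostaglandin gene became 2 without treated replicate 9. The NADPH oxidase call was lost without untreated replicate 3, treated replicate 7 or treated replicate 8. Of histone acetylation genes 1 was higher without untreated replicate 2, and 2 were lower without treated replicate 7 and 9 with the deposited FPKM.

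The identity of the cells was checked with marker genes. The defining cardiomyocyte genes were almost silent: MYL2 had 0 counts in all 6 libraries, MYH6 and MYH7 had 0 in 5 and 1 in treated replicate 9, and TNNT2, ACTN2, MYL7, NPPA, RYR2 and PLN had at most 6 counts in any library. TNNI3 was at 0.544 ± 0.0254 CPM without H2O2 and 0.509 ± 0.188 CPM with it and NPPB at 41.8 ± 0.445 CPM without H2O2 and 52.8 ± 8.85 CPM with it, while fibroblast matrix genes such as COL1A1 and SPARC were among the most abundant messages. Of 33 cardiomyocyte markers, 15 had enough counts to be tested; 3 were higher (TPM1, GATA6 and NPPB, the last by 0.34) and 3 lower (DES, TNNC1 and SLC8A1), and their summed level was 1234 to 1339 CPM without H2O2 and 1384 to 1516 CPM with it. Fibroblast and matrix genes summed to 18045 to 19474 CPM without H2O2 and 19225 to 21316 CPM with it.

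Markers of other cell types were also present at some level. Smooth muscle genes were higher in 6 of 10 cases and lower in 2, and summed to 1559.6 to 1600.2 CPM without H2O2 and 1895 to 1991 CPM with it; SMTN rose from 83.3 ± 3.72 to 149 ± 6.76 CPM and TAGLN from 269.7 ± 10.8 to 380.3 ± 29 CPM, whereas LMOD1 fell (-0.76). Epithelial genes summed to 397 to 439 CPM without H2O2 and 606 to 654 CPM with it, almost all of it from the keratins KRT18 (from 284 ± 19.3 to 451 ± 24.1 CPM) and KRT8 (from 91.3 ± 5.19 to 137 ± 3.84 CPM), with 3 of 8 higher and 2 lower. Endothelial genes summed to 42.5 to 48.8 CPM without H2O2 and 46.3 to 51.9 CPM with it. FLT1, TIE1 and ROBO4 were higher (1.31, 1.82 and 1.65), and KDR and TEK were lower (-0.61 and -0.65). With a minimum of 5 CPM on average, 1 endothelial gene was called higher and 1 lower. CDH5 had no more than 1 count in any library, and ERG, ESAM and CLDN5 also had too few to be tested. Leukocyte genes summed to 34.2 to 42.6 CPM without H2O2 and 52.1 to 54.4 CPM with it, nearly all from CD68 (from 31.3 ± 3.51 to 46.1 ± 0.652 CPM). Only 2 of the 11 leukocyte genes had enough counts to be tested. PTPRC, at 5 to 12 counts per library, ITGAM, at 1 to 3, CSF1R, LYZ and CD79A had too few. The part of all these cell type markers in the results above was not tested.

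The same H2O2 treatment was also given with an siRNA against EP300, a histone acetyltransferase, in libraries whose titles name EP300 and whose treatment label names MLF1. EP300 was at 26.5 to 36.8 CPM in those 6 libraries against 59.9 to 101 CPM in the 6 described here, and MLF1 at 38.8 to 42.8 against 44.7 to 51.7. The H2O2 effect differed between the siRNAs for 439 genes (3.33%) by a test of the interaction, 320 of them among the 4647 genes called with control siRNA. The 2 comparisons share no library. Of the 439 genes, 260 had the smaller absolute log2 fold change with the EP300 siRNA and 179 with the control siRNA. PLAU, which rose by 1.64 with control siRNA, had a log2 fold change of -0.048 with the EP300 siRNA (interaction -1.69 ± 0.12, adjusted p = 1.2e-05). CD44 had 1.68 and 0.91 (-0.77 ± 0.07, 9.4e-05), and CCND1 2.55 and 2.06 (-0.49 ± 0.088, 0.0077). CCNB1 had 0.48 and 0.093 (-0.38 ± 0.08, 0.017). For GDF15, IL1B and CDKN1A the interaction was -0.065 ± 0.30, -0.15 ± 0.17 and 0.39 ± 0.11, with adjusted p of 0.95, 0.73 and 0.08, which does not show that the responses were alike. The count of 439 rested on the libraries: leaving out 1 of the 6 at a time gave 232 to 709.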

How the data were processed

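RNA of AC16 cells was sequenced in 12 libraries, 3 per group, of which the 6 with control siRNA are compared here. Per gene, the authors deposited estimated counts, in which 12% to 13.8% of the values of a library are not whole numbers, and FPKM values, which divide by transcript length and library size. HISAT, Bowtie2 and the build GRCh38.p13 are named per the submitters' processing notes; the counting program is not given in the sources used here, nor is the annotation.

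The estimated counts were rounded and tested with edgeR 4.0.16 in R 4.3.3 (TMM scaling, genes kept by filterByExpr, quasi-likelihood F test, two-sided). All 12 libraries entered 1 fit with 1 mean per group, so that the other 6 helped to estimate the spread, and p-values were adjusted by Benjamini-Hochberg over 13171 genes and called under 0.05. With only the 6 control siRNA libraries in the fit, 1807 genes were called higher and 1641 lower. TMM factors were 0.976 to 1.046 and the biological coefficient of variation 6.72%. CPM are counts per 1000000 of the TMM-scaled library. Tested on simulated counts for this comparison (13075 genes), the procedure recovered 86% of 100 genes changed 1.5-fold and 94% of 100 changed 2-fold, and called 10 unchanged genes. The simulation gave every gene the same spread between replicates, changed only 200 genes and held no within-group axis. Its rates are therefore not the error rates of the results above.

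Replicates of a group differed by more than counting noise (chi-square per degree of freedom 3.63 to 18.1), so none was counted as a duplicate. Alternatives were DESeq2 1.42.0, limma 3.58.1 (voom, and log2(FPKM + 1) or log2(FPKM + 0.1)), RLE and upper-quartile scaling, other filters, the 6 libraries alone, the within-group axis as a covariate, a loess correction for length, and leaving out libraries. The members and the 57 gene lists were chosen with earlier results of these data known. Named were the 20 largest rises and falls among called genes of at least 5 CPM without overlap between groups, the 10 largest differences in CPM each way, and per list up to 6 called members with the smallest adjusted p and up to 4 uncalled members with the highest level; all members of lists of 12 or fewer could be named. Lists are described by counts and medians, with no set test. Gene coordinates are from GENCODE 29 (GRCh38), and promoters from RefSeq (GRCh38.p14), where 10663 of the tested genes matched by symbol. No mitochondrially encoded gene was analysed here. Some genes that the naming rule would take are not reported here, though they stay in the counts and medians.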

Additional observations from a re-analysis of the deposited data

Results flagged for a closer look

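Each gene below is named in the results above and had an H2O2 effect that differed between the siRNAs by the interaction test over all 13171 genes; values are the log2 effect with EP300 siRNA minus that with control siRNA. Groups of 3 libraries are too small for a test of single outlying libraries. Values below 0 mean a less positive or more negative effect with the EP300 siRNA, and the reason for any of them was not tested.

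Genes of plasminogen activation, matrix and adhesion that rose with control siRNA had a less positive H2O2 effect with the EP300 siRNA: PLAU (-1.69), PLAUR (-0.47), TIMP3 (-0.61), MMP14 (-0.50), LOX (-1.03), CEMIP (-0.98), CD44 (-0.77), COL6A1 (-0.56) and VIM (-0.44). The laminin chain LAMB3 (-0.77) and the integrins ITGA3 (-0.45), ITGA6 (-0.67) and ITGA11 (-0.76) were alike in sign. LAMA5 (-0.57), ADAM9 (-0.42), TGFBI (-0.42), TGFBR1 (-0.61) and SPARC (-0.40) were not called with control siRNA, and COL1A1 (-0.40) fell further. SERPINF1 (1.03) and SYNPO (0.55), among the largest falls with control siRNA, had less negative effects.

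Signalling genes included DUSP6 (-0.74), PHLDA1 (-0.92), CCND1 (-0.49), CAMK1G (-1.03), NRG1 (-0.67), SEMA7A (-0.35) and SGK1 (-0.36). Of secreted factors and vascular or stress genes, STC1 (-1.29), VEGFA (-0.85), ADM (-0.64), NRP1 (-0.36), ROBO4 (-1.21), FBXO32 (-1.38) and the glucose transporters SLC2A1 (-0.51) and SLC2A3 (-0.39) had less positive effects. IGFBP3 (-0.76) and C4B (-0.88) were more negative. IL11 (0.78) and ANKRD1 (0.47) rose more, and NFKB1 (0.40) was not called with control siRNA.

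In the cell cycle, the mitotic genes AURKA (-0.39), CCNB1 (-0.38), HMMR (-0.40), PLK1 (-0.43) and KIF20A (-0.43), the import receptor KPNA2 (-0.49), PLK2 (-0.48) and CDKN1B (-0.41) had values below 0. The replication and repair genes GINS1 (0.39), RFC5 (0.32), LIG1 (0.36), UNG (0.58) and DTL (0.36), and CCNE2 (0.80), had values above 0. These are the named cell cycle genes past the interaction test, not all members of either class.

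Among metabolic and stress genes, PSAT1 (-0.48), ASNS (-0.41) and DHCR7 (-0.37) fell further, SESN2 (-0.61), CEBPB (-0.43) and NPC1 (-0.50) had less positive effects, as had the chaperone genes HSP90B1 (-0.37), HYOU1 (-0.28) and HERPUD1 (-0.31). TM7SF2 (0.78) and UBTF (0.29) had less negative effects.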

How the results depend on the processing

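The 2349 genes called higher and 2298 called lower stayed within 1.5 times those counts in all 18 alternatives, at 1891 to 2365 and 1707 to 2258 when 1 library was left out, but the share called higher went from 50.5% to 36.7% with upper-quartile scaling and to 33.1% and 33.3% with the deposited FPKM at pseudocounts of 1 and 0.1. Counts at 2-fold or more, 277 higher and 183 lower, were 147 and 36 with a minimum of 5 CPM on average, and 108 and 35 on the log2(FPKM + 1) scale, since the filter removes low genes and the pseudocount shrinks their changes; they were 261 to 283 and 168 to 208 when 1 library was left out. The median over all genes, -0.0081, was -0.0018 with the 6 libraries alone, -0.065 with upper-quartile scaling, -0.012 at 5 CPM or more, -0.063 and -0.080 with FPKM, -0.0049 without untreated 1 and treated 7 together, -0.0012 with the length trend removed, and -0.012 to -0.0059 when 1 library was left out; the SD of the 3 treated libraries' medians was 0.0027.

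The 439 genes with a called interaction moved widely: 1996 without untreated 1 and treated 7 together, 1729 with the within-group axis as a covariate, 1083 with the length trend removed, and 232 to 709 when 1 library was left out (709 without treated 7, 681 without untreated 1, 252 without untreated 2, 234 without untreated 3, 232 without treated 8). The cause was not tested. No paired analysis was possible because the groups compared share no replicate numbers (1 to 3 and 7 to 9).

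None of the 387 genes named changed direction with a call in any of the 18 alternatives in which it was tested. With a minimum of 5 CPM on average 369 of them were tested, and with the 6 libraries alone 386. Of the 387 genes, 11 lost their call with FPKM at a pseudocount of 1 and 7 with upper-quartile scaling, and 24 and 17 gained one. Without untreated 1 and treated 7 together 15 lost and 30 gained a call. With the axis as a covariate 0 lost and 44 gained one. That gain is no independent check, since the axis was taken from the spread inside the groups. Depth limits the low genes: at the level of AREG (0.106, 0.0521 and 0.212 CPM untreated) 1 library holds only a few reads.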
